A study of Mus musculus with 5 samples.

Results

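The miR-30 family was followed through activation of mouse helper T cells with 6 of the 178 probes of a microRNA array. The members were all probes whose ID carries the number of miR-30 and a letter from a to e after its prefix. They are 1org-30a, 1org-30a*, 1org-30b, 1org-30c, 1org-30d and 1org-30e, and together with 165 further probes they make up the 171 microRNA probes of the array. RNA of activated cells was set against RNA of unactivated cells on 5 arrays of 2 channels each. The activated cells had been stimulated overnight (1 array, activated RNA in Cy5), for 3 days (2 arrays) or for 10 days (2 arrays), and at days 3 and 10 the 2 arrays carried the activated RNA in opposite dyes. The unactivated cells, called naive in the title of the series, were on every array, and all cells were CD4-positive and CD25-negative T cells. Strain and age of the mice, the stimulus, and whether both arrays of a time were made from the same RNA are not stated in these sources.

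A microRNA acts by pairing its seed, the bases near its 5′ end, with messages that carry the matching letters, and microRNAs that share a seed are grouped into a family because they can act on largely the same messages. The main strands of the miR-30 family come from the 5′ arm of their hairpins, are made from several genes and are found in many tissues. In human lymphoma cells, members of the family are known to act on the message of PRDM1 (Blimp-1), a factor of terminal lymphocyte differentiation. On activation, T cells are known to lower many of the microRNAs that are abundant in the resting state.

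The mature sequences below, from RefSeq on GRCm38.p6, are shown because they define the family and show how little separates some of its members. Of the 5 letters on the array, 3 matched by name, a, c and e. No mature sequence of miR-30b or miR-30d was found there, so their seeds were not read. Capitals mark the seed, bases 2 to 8.
mmu-miR-30a-5p: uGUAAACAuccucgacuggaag
mmu-miR-30e-5p: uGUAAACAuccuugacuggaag
mmu-miR-30c-5p: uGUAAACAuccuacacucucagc
mmu-miR-30a-3p: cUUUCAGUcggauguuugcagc
mmu-miR-30e-3p: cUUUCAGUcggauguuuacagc

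The 5′ strands shown share the seed GUAAACA, which 4 of 1679 mature mouse names in that table carry (0.238%), the fourth being mmu-miR-384-5p. The 3′ strands of miR-30a and miR-30e carry another seed, UUUCAGU, found in no further name of that table. Both counts leave out miR-30b and miR-30d, so they do not place these microRNAs outside either seed group. Counted from the 5′ end, miR-30a-5p and miR-30e-5p differ at 1 of 22 bases, C13U, and their 3′ strands at 1 of 22, G18A. The strand miR-30c-5p shares 17 of 22 compared bases with each of the other 5′ strands shown. Every difference lies at position 13 or later, outside the seed. The hairpins of these letters lie in pairs, and those of miR-30b and miR-30d were not placed. Mir30a is at chr1:23272269-23272339 on the plus strand, 19361 bases before Mir30c-2 at chr1:23291701-23291784. Mir30c-1, at chr4:120769534-120769622 on the minus strand, lies 2983 bases from Mir30e at chr4:120772606-120772697. Both chromosome 4 hairpins fall within the span of the gene Nfyc, which encodes a subunit of a CCAAT-binding factor, and the table does not say whether in an exon or an intron. The strand miR-30c-5p has the same sequence from both of its genes, so probe 1org-30c cannot tell them apart. Of the 6 probes, 1org-30e alone has an annotated gene (Mirn30e, now Mir30e), and the other 5 are read by the number and letter in their IDs. The names of the miR-30a arms have changed over time, so which arm 1org-30a reads and which 1org-30a* reads is not settled. Probe sequences were not used here, and how far a probe separates strands that differ by 1 base was not tested.

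Each deposited value is a log ratio, read as log2, of which neither the base nor the numerator is stated in these sources. Before any turning, the 2 arrays of each dye pair correlated negatively across the microRNA probes (r = -0.66 at day 3, -0.43 at day 10), as values that run in 1 dye direction do. The overnight array did not follow this, at r = 0.09 and 0.15 with the later arrays of opposite dye. Cy5 over Cy3 was taken as the likely direction, though it is not stated, because it is the usual order of such tables. The array titles do not settle it: all 5 name activated before normal cells, which is Cy5 before Cy3 on 3 arrays and Cy3 before Cy5 on 2. With Cy5 taken as the numerator, the arrays with activated RNA in Cy3 were multiplied by -1. Every direction below turns if Cy3 was the numerator. Arrays of the same dye orientation correlated at r = 0.24 to 0.47 over all probes. After turning, the overnight array stood apart: across the microRNA probes, which are not independent replicates, it correlated at r = 0.27 and 0.31 with the later arrays of its own dye orientation and at r = -0.09 and -0.15 with those of the other. With this reading the probe of miR-155, known to be induced by antigen receptor signals, stood at 4.89 and 4.87 on the day 3 arrays, and probe 1org-150, numbered as miR-150 of mature lymphocytes, at -5.86 and -4.63. The overnight array had a median of -1.75, the day 3 arrays of 0.20 and 1.42, and the day 10 arrays of -0.51 and -0.38, and the level of the whole array moves every ratio. Values are therefore given as deposited and with the array's own median taken off (centred), and ranks among the 171 probes, which centring leaves as they are on a single array, stand beside them. Values after ± are the distance of either array from the pair mean (n = 2 arrays). Because the dyes are opposite, that distance holds the probe's dye effect and is no standard error. It is not known which probes were above background, and the number of arrays limits the precision.

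The family split at day 3. Probes 1org-30b, 1org-30c and 1org-30d were 8.83-fold, 5.79-fold and 4.73-fold lower in activated than in naive cells, among the 11 lowest of all 171 microRNA probes, while 1org-30a, 1org-30a* and 1org-30e stayed within 2-fold of naive cells as deposited. At day 10 all 6 lay close together, between -1.05 and -0.55. Overnight their order was another one, with 1org-30e lowest. A probe was called higher or lower at a time where its mean lay at least 1 from 0 on the log2 scale (2-fold), with the same sign on every array of that time. This is a rule of size and not a test.

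**Figure D1:**
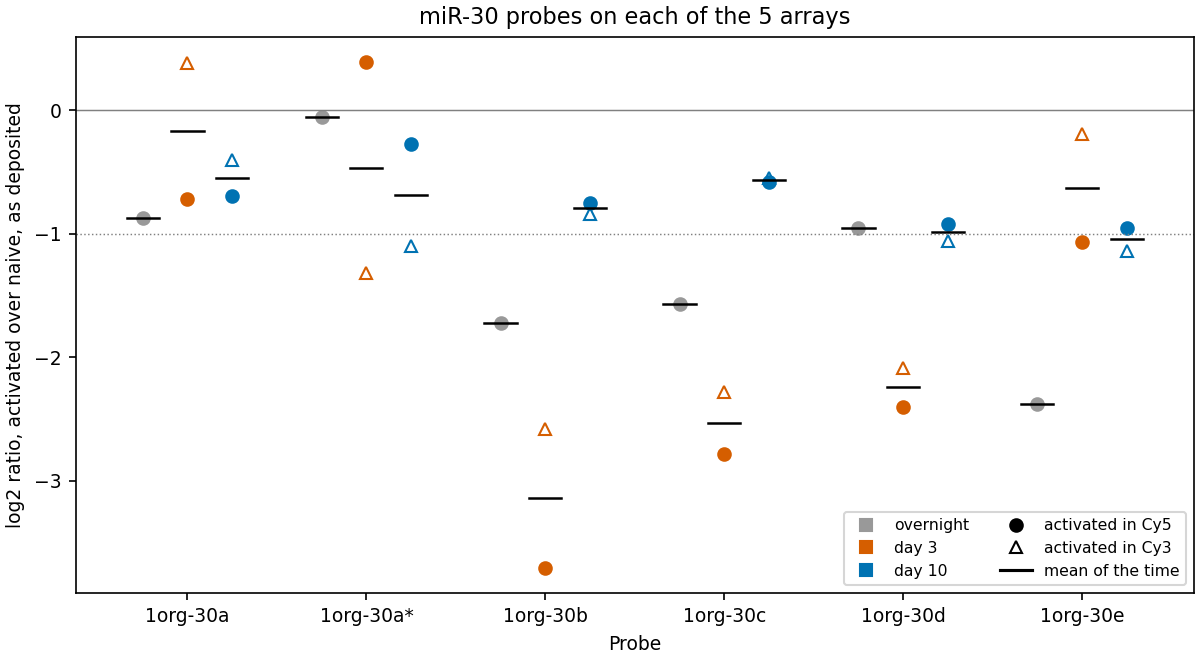
Log2 ratios of activated over naive cells, as deposited and turned to that direction, for the 6 miR-30 probes (x axis) on each of the 5 arrays. Filled circles are arrays with activated RNA in Cy5, open triangles those with it in Cy3, black lines the mean of a time, and the dotted line marks 2-fold lower. The day 3 values of 1org-30b, 1org-30c and 1org-30d, from -3.70 to -2.08, lie below every day 3 and day 10 value of the other 3 probes.

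Overnight, the single array gave 1org-30a* at -0.06, 1org-30a at -0.87, 1org-30d at -0.96, 1org-30c at -1.57, 1org-30b at -1.72 and 1org-30e at -2.38. The last 3 were past 2-fold on the lower side, as were 73.1% of all microRNA probes, so this count says little about the family. Most of the array lay low: its median was -1.75 and that of the 6 members -1.26. After centring, no member was lower by 2-fold, against 4.09% of all probes, and 1org-30a* was higher at 1.69, against 21.6% of all probes. Probes 1org-30b and 1org-30c then stood at 0.03 and 0.18, 1org-30d at 0.79 and 1org-30a at 0.88. Probe 1org-30e remained on the lower side at -0.63, rank 24 from the lowest, where 1org-30b was at rank 89, 1org-30c at 100, 1org-30d at 130, 1org-30a at 132 and 1org-30a* at 148. This array had no dye swap. The part of a member's ratio that does not turn with the dye, averaged over the 2 later pairs, was largest for 1org-30a*, at 0.63 toward Cy5, and between -0.35 and -0.05 for the rest. Taking it off put 1org-30a* at -0.69 and 1org-30a at -0.52, while 1org-30e stayed lowest at -2.20. In limma's fit over the 5 arrays with a term for each time and for the dye, 1org-30e stood at -2.20 overnight. It alone among the members was called lower there, where the fit called 38.6% of all probes lower. After centring 1org-30e stood at -0.80 and was not called, where 1.17% of probes were called lower. The overnight term rests on 1 array, so the spread behind these calls comes from the day 3 and day 10 arrays. Variation between overnight arrays was not measured, and the overnight calls are not read as a test.

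At day 3, 1org-30b stood at -3.70 with the activated RNA in Cy5 and at -2.58 with it in Cy3, a mean of -3.14 ± 0.56. Its 2 values were the 6th and 8th lowest of the 171 probes on their arrays. For 1org-30c the arrays gave -2.79 and -2.28 (mean -2.53 ± 0.25), rank 11 on both. Probe 1org-30d gave -2.40 and -2.08 (mean -2.24 ± 0.16), ranks 13 and 12. All 6 of these values lay below -2, so the 3 probes were low in both dyes. After centring, which takes 0.81 off the day 3 means, they were at -3.95 ± 0.05, -3.34 ± 0.36 and -3.05 ± 0.45.

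The other 3 probes stood nearer to 0 at day 3 as deposited. Probe 1org-30e, for the microRNA that shares the Nfyc span with miR-30c, gave -1.07 and -0.19 (mean -0.63 ± 0.44). For 1org-30a the arrays gave -0.72 and 0.38 (mean -0.17 ± 0.55), and for 1org-30a* 0.39 and -1.32 (mean -0.46 ± 0.85). Signs differed between the dyes for both miR-30a probes. Against their own arrays these 3 were nonetheless on the low side: their means ranked 27, 36 and 32 from the lowest, and after centring they stood at -1.44 ± 0.17, -0.98 ± 0.06 and -1.28 ± 1.47. The values of 1org-30a* on the centred arrays, 0.19 and -2.74, lay far apart. With 1 array in each dye, a dye effect and variation between arrays cannot be told apart there.

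Of the 6 probes, 3 were called lower and 0 higher at day 3, against 12.9% and 38% of all microRNA probes. After centring 4 were lower, 1org-30e with them, against 19.9% of all probes, and 0 higher, against 15.2%. The median of the 6 was -1.44, that of all probes 0.83, and after centring the 2 medians were -2.25 and 0.02. The limma fit over 5 arrays gave 1org-30b, 1org-30c and 1org-30d adjusted p-values of 4.81e-10, 3.76e-07 and 6.93e-06 over all microRNA probes (SE 0.45 each, pooled across probes by the moderation). It called 12.9% of probes lower, and 1org-30e (limma adjusted p = 0.20), 1org-30a* (0.34) and 1org-30a (0.73) did not pass. After centring all 6 passed, with 1org-30a last at adjusted p = 0.030, where the fit called 21.1% of probes lower. The SE was again pooled, at 0.38 each, so a probe's own scatter between arrays hardly counts. Probe 1org-30a* passed (limma adjusted p = 0.0032) although its centred values, 0.19 and -2.74, had opposite signs and did not meet the size rule. With a term for each time and for the dye, the only spread left in the 5 arrays is between the dye effects of the day 3 and day 10 pairs. The p-values speak only of this variation between arrays, perhaps technical, and not of replicate cultures. The choice of scale matters to the size and, for 3 members, to the sign: set against the median of the 7 transfer RNA and small nuclear RNA probes, themselves between -3.65 and 0.54 at day 3, 1org-30b, 1org-30c and 1org-30d were at -1.49, -0.88 and -0.58, and 1org-30e, 1org-30a* and 1org-30a at 1.03, 1.19 and 1.49. The last 3 met the size rule there on the higher side, and 1org-30b alone on the lower side. That scale takes -1.66 off every day 3 mean, which raises all probes, and their median was already 0.83 as deposited. The share of all probes was not counted on that scale, so the higher calls are not read as a trait of these members.

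**Figure D2:**
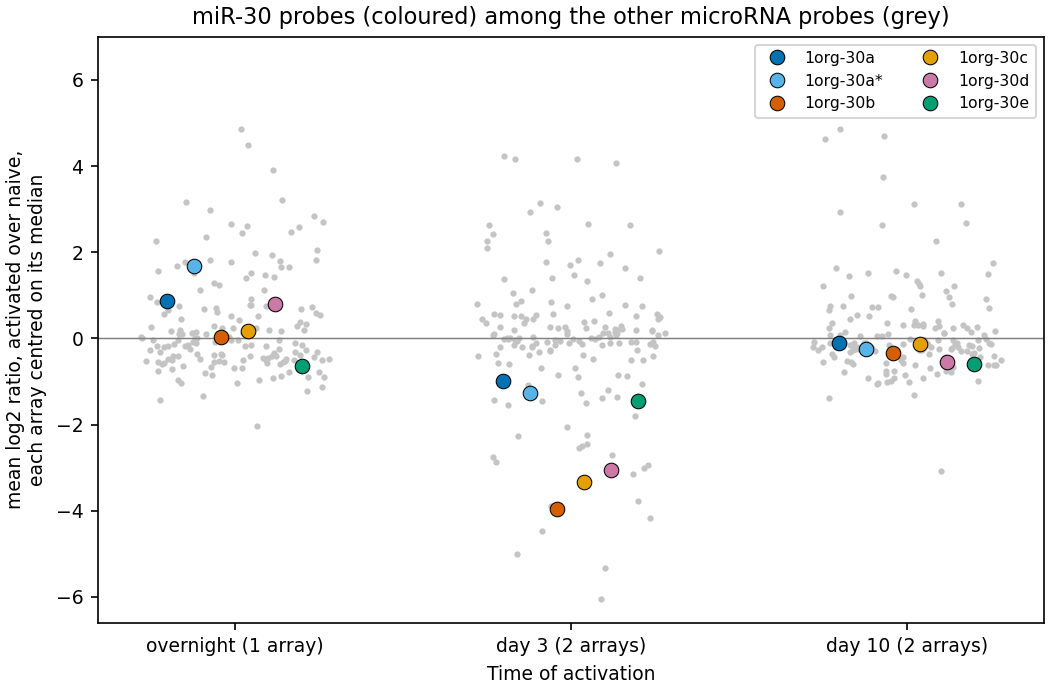
Mean log2 ratio of activated over naive cells, each array centred on its median, at the 3 times (x axis), for the 6 miR-30 probes (coloured) and the other microRNA probes (grey). Members lie between -0.63 and 1.69 overnight, between -3.95 and -0.98 at day 3 and between -0.60 and -0.10 at day 10.

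By day 10 the 2 arrays agreed closely for 5 of the members. Probe 1org-30e gave -0.95 and -1.14 (mean -1.05 ± 0.09), 1org-30d -0.92 and -1.06 (-0.99 ± 0.07), 1org-30b -0.75 and -0.84 (-0.80 ± 0.04), 1org-30c -0.58 and -0.55 (-0.57 ± 0.02) and 1org-30a -0.69 and -0.40 (-0.55 ± 0.15), always with the array of activated RNA in Cy5 first. Probe 1org-30a*, the other miR-30a arm, again differed most between the arrays, at -0.27 and -1.10 (-0.68 ± 0.41). All 12 values were below 0, but so were the medians of both arrays. Only 1org-30e reached 2-fold on the lower side, 1 of 6 members against 17% of all probes, and 0 were higher, against 9.94%. After centring 0 of 6 were lower, against 4.09% of all probes, and their means ran from -0.60 for 1org-30e to -0.10 for 1org-30a. The member median was -0.74 and that of all probes -0.56 (-0.29 and -0.12 after centring). No member passed the limma fit over 5 arrays at day 10, where 11.7% of probes were called lower; 1org-30e (adjusted p = 0.081) and 1org-30d (adjusted p = 0.096) came nearest. At an unadjusted threshold of 0.05 these 2 of 6 passed on the lower side, against 23.4% of all probes.

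Between the later times, 1org-30b, 1org-30c and 1org-30d stood higher against naive cells at day 10 than at day 3. The difference of the pair means was 2.35 for 1org-30b (-0.80 at day 10 and -3.14 at day 3), 1.96 for 1org-30c (-0.57 and -2.53) and 1.25 for 1org-30d (-0.99 and -2.24), with no overlap between the pairs. They ranked 7, 10 and 18 from the highest difference among the 171 probes. These 3 of 6 members met the size rule, against 12.9% of all probes as deposited, and after centring again 3 of 6, against 28.1%, at 3.61, 3.22 and 2.51. The median difference of all probes was -1.22, since the day 3 arrays lay high, and that of the members 0.52 (0.04 and 1.78 after centring). Probes 1org-30a, 1org-30a* and 1org-30e differed by -0.38, -0.22 and -0.41 as deposited and by 0.88, 1.04 and 0.84 after centring, and their pairs overlapped or differed by under 2-fold in each setting. In the limma fit 1org-30b (adjusted p = 0.0020) and 1org-30c (adjusted p = 0.0071) passed, and 1org-30d did not (adjusted p = 0.084, or 5.19e-05 after centring), where 8.77% of all probes were called higher as deposited and 21.6% after centring. Against the transfer RNA and small nuclear RNA probes, 1org-30b alone met the size rule on the higher side (1.30), 1org-30c was at 0.92 and 1org-30d at 0.20, and on the lower side 1org-30a (-1.43) and 1org-30e (-1.46) met it. Scaling to those RNA probes takes 1.05 off every difference between the later times. This lowers all probes, whose median difference was already -1.22 as deposited. How many of all probes would be called lower on that scale was not counted. The lower calls of 1org-30a and 1org-30e are therefore not read as a fall particular to them. Both times were set against naive RNA, and whether that was the same RNA is not stated.

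From overnight to day 3 the comparison is held to the arrays of 1 dye orientation, with the day 3 array first. For 1org-30b the values were -3.70 and -1.72, for 1org-30c -2.79 and -1.57, and for 1org-30d -2.40 and -0.96. The other 3 were higher at day 3: 1org-30e at -1.07 and -2.38, 1org-30a at -0.72 and -0.87, and 1org-30a* at 0.39 and -0.06. After centring the difference was below 0 for all 6, from -3.93 for 1org-30b to -0.64 for 1org-30e. With 1 array a time there is no test of these differences.

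Differences between members on the same array do not depend on centring or on the level of the array. Probe 1org-30a lay above 1org-30b on all 5 arrays, by 0.85 overnight, by 2.98 and 2.97 at day 3 and by 0.06 and 0.44 at day 10. The day 3 distance was nearly the same in both dyes. Probe 1org-30e lay 0.66 below 1org-30b overnight, 2.63 and 2.39 above it at day 3, and 0.20 and 0.30 below it at day 10, so the order of these 2 members turned between the times. Probe 1org-30c lay above 1org-30b on all 5 arrays by at most 0.92, and 1org-30d was 0.76 above overnight, 1.30 and 0.50 above at day 3 and 0.17 and 0.22 below at day 10.

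**Figure D3:**
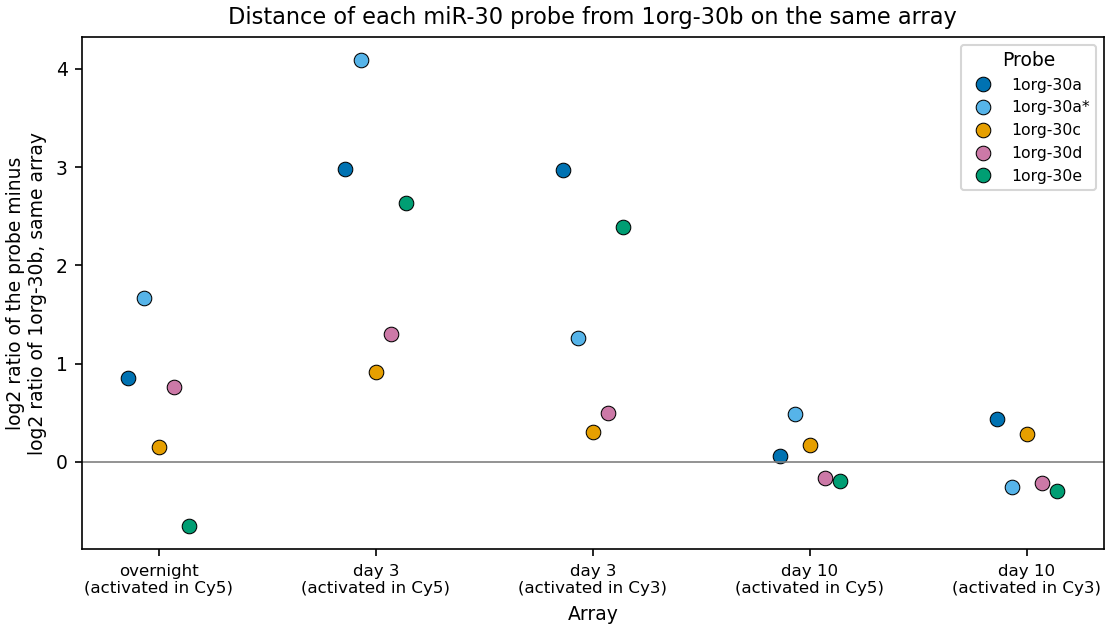
Log2 ratio of each other miR-30 probe minus that of 1org-30b on the same array (y axis), for the 5 arrays (x axis). Points at 0 would have moved as 1org-30b did. At day 3 1org-30a and 1org-30e lie 2.39 to 2.98 above 1org-30b in both dyes, and at day 10 all probes lie within 0.48 of it.

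Among the 5 probes without an arm mark, the overnight array held a range of 1.51, the day 3 arrays ranges of 2.98 and 2.97, and the day 10 arrays ranges of 0.37 and 0.74. Over all microRNA probes the range between the 5th and 95th percentile was 3.57, then 6.50 and 6.13, then 4.29 and 3.97. The day 3 arrays thus spread both the members and the probes as a whole most widely. The day 10 arrays spread the probes as a whole more widely than the overnight array did, but the members less. How far the split of the members at day 3 follows the wider spread of those arrays was not tested. Probes 1org-30a and 1org-30e lay 0.35 and 0.58 apart at day 3 and 0.26 and 0.74 apart at day 10, but 1.51 apart overnight, with 1org-30a higher on all 5 arrays. Probes for the neighbouring genes on chromosomes 1 and 4 differed too. Probe 1org-30c is in both pairs and cannot tell its genes apart, and the genes of miR-30b and miR-30d were not placed. At day 3 1org-30a lay 2.06 and 2.66 above 1org-30c, which shares the chromosome 1 pair, and the difference of 1org-30c minus 1org-30e, which share the chromosome 4 pair, was -1.72 and -2.09. The 2 probes for the arms of miR-30a, 1org-30a and 1org-30a*, could not be ordered at the later times, since their difference was -1.11 and 1.70 at day 3 and -0.42 and 0.70 at day 10.

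Taken over the 3 times as 3 replicates, with each pair averaged, no member passed limma's test against 0, and no microRNA probe did (0%, smallest adjusted p = 0.11). The mean was -1.89 for 1org-30b (SE 0.93, limma adjusted p = 0.67), -1.56 for 1org-30c, -1.40 for 1org-30d, -1.35 for 1org-30e, -0.53 for 1org-30a and -0.40 for 1org-30a*. At an unadjusted threshold of 0.05, 1org-30b was the 1 member on the lower side, with 4.68% of all probes. Without regard to size, 4 of the 6 members were below 0 on all 5 arrays, 1org-30b, 1org-30c, 1org-30d and 1org-30e, against 10.5% of all probes. After centring this held for 1org-30e alone, against 5.26%.

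Likeness of course was measured as the root mean square of the difference in log2 ratio over the 5 arrays, which centring does not change. The 5 probes nearest to the mean of the 5 members without an arm mark were miR-15b (1org-15b, 0.31), 1org-16 (0.43), 1org-7a (0.44), 1org-142-s (0.58) and 1org-142-as (0.60), against a median distance of 1.82 over 165 non-member probes. MiR-15 and miR-16 are known as brakes on the cell cycle, let-7 as a restraint on growth, and miR-142 from blood cells. Probes 1org-15b, 1org-16 and 1org-7a stood nearer to that mean than any member, whose own distances ran from 0.44 for 1org-30d to 1.33 for 1org-30a*. For single members, the nearest probes to 1org-30b were miR-26b (1org-26b, 0.34) and 1org-30c (0.46), to 1org-30c 1org-16 (0.29) and miR-26b (0.36), and to 1org-30d 1org-7a (0.40) and 1org-30c (0.43). Probe 1org-30e was nearest to let-7e (1org-7e, 0.46) and 2org-181c (0.54), 1org-30a to 1org-194 (0.41) and miR-93 (1org-93, 0.51), and 1org-30a* to 1org-106a (0.80) and miR-93 (0.84). Neither 1org-30a nor 1org-30e had a family member among its 2 nearest probes.

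At day 3 the miR-30 median of -1.44 (3 of 6 lower by 2-fold) was set beside those of 3 other families known from lymphocytes: -1.70 for let-7 with miR-98 (7 of 10), -1.68 for miR-15/16 with miR-195 (3 of 4) and -3.58 for the 2 miR-26 probes (2 of 2). Of all microRNA probes, 12.9% were lower by 2-fold. After centring the counts were 4 of 6, 9 of 10, 3 of 4 and 2 of 2 in the same order, against 19.9% of all probes. At day 10 the medians were -0.74 for miR-30, -0.28 for let-7, -0.34 for miR-15/16 and -0.75 for miR-26. The difference of day 10 and day 3 had a median of 0.52 for miR-30, 1.65 for let-7, 1.32 for miR-15/16 and 2.83 for miR-26. After centring, the day 10 means ran from -0.60 to -0.10 for miR-30, from -0.34 to -0.26 for miR-26, from -1.03 to 1.26 for let-7 and from -0.16 to 0.95 for miR-15/16, with a median of -0.12 over all probes. Differences between families were not tested.

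**Figure D4:**
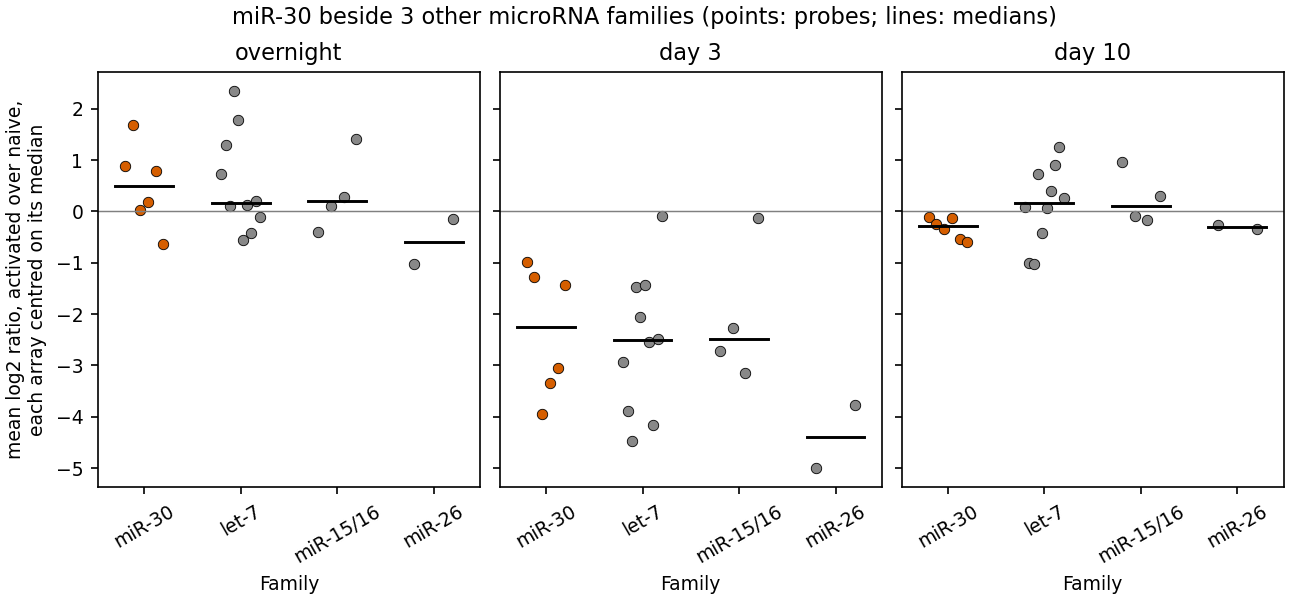
Mean log2 ratio of activated over naive cells, each array centred on its median, for the probes of miR-30 (orange) and of let-7, miR-15/16 and miR-26 (grey), in a panel for each time. Points are probes and lines medians. At day 3 the miR-30 probes fall in groups of 3, from -1.44 to -0.98 and from -3.95 to -3.05, and at day 10 they lie between -0.60 and -0.10.

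Ratios give no level, so the cell type named in the labels could not be checked against its markers. Of 8 probes numbered for microRNAs of lymphocytes (miR-142, miR-150, miR-155 and miR-181), 5 were lower by 2-fold and 0 higher overnight, against 73.1% and 4.09% of all probes. At day 3, 6 were lower and 1 higher, against 12.9% and 38%. At day 10, 4 were lower and 0 higher, against 17% and 9.94%. After centring 1 of the 8 was lower and 2 higher overnight, against 4.09% and 21.6%. At day 3, 7 were then lower and 1 higher, against 19.9% and 15.2%, and at day 10 2 were lower and 0 higher. A further 18 probes were numbered for microRNAs of myeloid, erythroid, liver, neural, muscle, stromal and epithelial cells. Overnight 14 of them were lower and 2 higher, between -2.63 and 1.42, against 73.1% and 4.09% of all probes. At day 3 0 were lower and 4 higher, between -0.24 and 1.26, against 12.9% and 38%. At day 10 5 were lower and 0 higher, against 17% and 9.94%. After centring 4 of the 18 were higher and 0 lower overnight, against 21.6% and 4.09% of all probes. The median of the 5 epithelial probes was then 2.62. At day 3 0 of the 18 were higher after centring and 1 lower, the myeloid 2org-223 at -1.05, against 15.2% and 19.9% of all probes. At day 10 0 were higher or lower, against 25 and 7 of all 171 probes. Their part in the values of the miR-30 probes was not tested. In these bulk RNA samples fewer cells of a type and less of a microRNA per cell cannot be told apart.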

How the data were processed

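The deposited table holds 1 value for each of 178 probes on each of 5 arrays, with 0 missing, and these were read as log2 ratios. Per the labels, each array set activated against unactivated cells in Cy5 and Cy3. Scanner, background correction, normalization, log base and numerator were not given in the sources used here. Arrays with activated RNA in Cy3 were multiplied by -1. No test included the 7 transfer RNA and small nuclear RNA probes. Arrays of a dye pair were averaged. The main rule was size, at least 2-fold with 1 sign. The test over the 3 times, and that over 5 arrays with time and dye terms, used limma 3.58.1 (lmFit, eBayes, 2-sided, Benjamini-Hochberg over 171 probes, threshold 0.05) in R 4.3.3, tested on simulated data. The members, lists, alternatives and the rule for naming probes (all members, the 5 probes nearest to their mean, the 2 nearest to each) were chosen with earlier results of these data known. With naive RNA in 1 channel throughout, tests leave out its own spread. Alternatives were 3 scalings, a 1.5-fold rule, leaving out each array and taking off the dye effect.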

Additional observations from a re-analysis of the deposited data

Results flagged for a closer look

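Between day 10 and day 3 the ratio of activated over naive cells differed in the limma fit over 5 arrays for 1org-30b (difference 2.35, SE 0.63, adjusted p = 0.0020) and 1org-30c (difference 1.96, SE 0.63, adjusted p = 0.0071). Probe 1org-30d differed after centring only (difference 2.51, SE 0.54, adjusted p = 5.19e-05). In all 3 both day 10 values lay above both day 3 values. The p-values speak only of variation between arrays, which in this fit is how far the dye effect differed between the day 3 and day 10 pairs. Separate cultures could not be compared.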

How the results depend on the processing

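Counts of members called lower at day 3 were 3 as deposited, 4 after centring, 3 in the limma fit over 5 arrays and 1 against the other small RNA probes. On that last scale 1org-30a, 1org-30a* and 1org-30e were called higher at day 3. At day 10 the count was 1 as deposited and 0 after centring, against the other small RNA probes, with arrays centred and brought to the same spread, and in the limma fit; it was 4 with a 1.5-fold rule and 0 to 3 when either array was left out. Overnight it was 3 as deposited, 0 after centring with or without the same spread, 1 against the other small RNA probes and 5 with a 1.5-fold rule. As deposited, 73.1% of all microRNA probes were already lower by 2-fold overnight. Shares over all probes were counted only as deposited, after centring and in the limma fit. The other counts are therefore not read as results about the family. Members higher at day 10 than at day 3 numbered 3 as deposited, 2 in the limma fit and 1 against the other small RNA probes. The test over the 3 times called 0 members in every alternative run, among them those without each array in turn. It called no microRNA probe at all as deposited (smallest limma adjusted p = 0.11) or after centring (0.48). These counts of 0 therefore say little about the members.

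The median of the members overnight, -1.26 as deposited, became 0.49 after centring, 0.62 with the same spread and -0.059 against the other small RNA probes; 1org-30b then stood at 0.027 and 1org-30c at 0.18 after centring, and at 0.035 and 0.23 with the same spread. At day 3 the median of -1.44 became -2.25, -1.99 and 0.22 in the same order, and -1.73 to -1.70 with 1 array left out. At day 10 -0.74 became -0.29, -0.41 and -0.13, and -0.95 to -0.72 with 1 array left out. Of 84 single member values under alternatives, 4 changed sign where called, all of them named here. Centring takes off the array's own median and so accounts for its own shift by construction. Signal over background was not analysed here, and with 1 to 2 arrays a time it is not known how far values would vary between cultures.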
